A study of Homo sapiens with 9 samples.

Results

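The genes described here move new proteins into the endoplasmic reticulum (ER) and carry them between the ER and the Golgi. They are 45 listed genes of the signal recognition particle, the translocon, signal peptidase, the COPII and COPI vesicle coats and the KDEL receptors, chosen by name. The count files hold 36018 genes, of which 17902 had enough counts to be tested. Gene positions below are from GENCODE 29 on GRCh38. Each of the 45 symbols matched 1 gene, and all 45 were among the tested genes.

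RNA was sequenced from HCT-15 cells, a widely used human line grown from a colorectal adenocarcinoma and labelled as wild type (WT). Untreated HCT-15 cells (treatment "None") are the control. A CoCl2-tolerant line and a low-glucose-tolerant line were derived from HCT-15 by stepped-up exposure to cobalt chloride or to low glucose until they tolerated it, and each line stands for 1 derivation. Cobalt chloride is a salt that blocks the breakdown of hypoxia-inducible factors, and low glucose deprives cells of sugar for energy and for protein glycosylation. All lines were grown in RPMI1640 medium with fetal bovine serum, and each group has 3 libraries, 9 in all. The labels do not say how long tolerance took to reach, whether the agent was present at harvest, or whether the 3 libraries of a line came from separate cultures, so the p-values measure the spread between these libraries only. A brefeldin A-tolerant line, named in the labels' protocol, was not analysed here. The series concerns ER stress and senescence in colorectal cancer, and the comparisons ask where the tolerant lines depart from untreated cells and from one another.

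As background, a signal peptide emerging from the ribosome is bound by the signal recognition particle (SRP), which docks at its receptor on the ER membrane and hands the nascent chain to the SEC61 channel. Signal peptidase then removes the signal peptide. Folded cargo leaves the ER in COPII vesicles, built from SAR1, the SEC23 and SEC24 inner coat and the SEC13 and SEC31 outer coat. COPI vesicles return escaped proteins and machinery from the Golgi, and KDEL receptors catch escaped ER chaperones by their tail sequence. Many of these genes are known targets of the unfolded protein response (UPR), through the transcription factors XBP1, ATF6 and their relatives.

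Depth ran from 25178615 to 32674687 counts per library, of which the 45 genes together took 0.493 to 0.609%. Mitochondrially encoded genes took 8.08 to 9.80% of counts in control and less in the tolerant lines (4.64 to 6.67% with CoCl2, 4.74 to 5.20% with low glucose). General epithelial markers were present, with EPCAM, KRT8, KRT18 and KRT19 at 19.8 CPM (a gene's counts scaled to the size of its library) or more in every library, but they did not move together. In the low-glucose-tolerant line the keratin genes rose (KRT18 2.42 ± 0.14, adjusted p = 2.14e-09, KRT8 0.98 ± 0.12, adjusted p = 4.98e-06 and KRT19 0.78 ± 0.13, adjusted p = 8.76e-05) and EPCAM was at 0.03 ± 0.16, adjusted p = 0.889. With CoCl2, EPCAM fell (-1.33 ± 0.16, adjusted p = 2.95e-05), KRT8 fell (-0.41 ± 0.12, adjusted p = 0.0148), KRT19 rose (0.73 ± 0.13, adjusted p = 0.000622) and KRT18 was not called (-0.12 ± 0.13, adjusted p = 0.511). These are log2 fold changes with their standard error, tested with edgeR. CDH1, the epithelial cadherin, fell in both lines and was at 18.3, 17.8 and 17.4 CPM in control, 1.44, 1.26 and 1.52 in CoCl2-tolerant and 7.78, 9.77 and 6.88 in low-glucose-tolerant libraries. Of 10 matched intestinal markers, 9 were under 1 CPM in every control library and all 10 in every library of both tolerant lines, so the intestinal label rests on the submitters. CDX1, CDX2 and MUC2 are on that list. Leukocyte markers summed to at most 2.95 CPM and endothelial markers to at most 1.82 CPM in any library. The summed fibroblast list moved with the groups, at 1832 to 1880 CPM in control against 242 to 273 CPM in the CoCl2-tolerant line and 25.4 to 35.4 CPM in the low-glucose-tolerant line. In the control and CoCl2-tolerant libraries nearly all of it was COL1A1, a collagen chain. In the low-glucose-tolerant libraries COL1A1 was at 19.5, 21.7 and 23.2 CPM, beside PDGFRB at 5.06, 6.27 and 5.32 and COL1A2 at 0.136, 0.308 and 5.21 CPM. The other genes of the list did not follow COL1A1 in that line, where PDGFRB (-0.06 ± 0.17, adjusted p = 0.752), COL1A2 (0.19 ± 0.82, adjusted p = 0.847) and COL3A1 (0.41 ± 0.81, adjusted p = 0.667) were not called, and DCN was called higher at 0.612, 0.685 and 0.579 CPM (adjusted p = 1.42e-05). PDGFRB fell in the CoCl2-tolerant line (-1.80 ± 0.19, adjusted p = 8.59e-06). DCN and LUM were under 1 CPM in all 9 libraries. The summed plasma cell list, nearly all of it SDC1, was 133 to 144, 138 to 170 and 214 to 246 CPM in the same order. The part of these shifts in the results below was not tested. In such bulk samples, fewer cells of a type and less RNA per cell cannot be told apart.

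Promoter sequence was searched for short elements of the UPR, because several members are known UPR targets. The RefSeq promoter windows (GRCh38.p14) run from 250 bases before to 50 bases after each transcript start, and 40 members had at least 1. TGACGTGG, the core of the UPR element bound by XBP1 and ATF6, was present on either strand in 11 of the 40 members (27.5%), against 1.24% of 12054 tested genes and 0.927% of all 27305 genes with a window. Counted over windows, it was in 12 of 55 member windows (21.8%) and in 0.729% of 35116 windows. These are the stretches of 30 bases around it in the 11 members, on the strand of the gene, with the element in capitals as TGACGTGG or as its reverse complement CCACGTCA. COPB2 has 2 stretches and 2 RefSeq starts. The first element lies before both starts, and the second lies after 1 start and spans the other.
KDELR3, chr22:38468039-38468068, plus strand: ggccgccctggCCACGTCAccgcccggcca
SSR4, chrX:153794528-153794557, plus strand: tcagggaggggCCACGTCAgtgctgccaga
SSR3, chr3:156554148-156554177, minus strand: tctgataacagCCACGTCAgcaaggaaact
SEC62, chr3:169966779-169966808, plus strand: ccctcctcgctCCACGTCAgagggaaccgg
SRP19, chr5:112861164-112861193, plus strand: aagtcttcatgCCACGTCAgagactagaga
SEC23A, chr14:39103221-39103250, minus strand: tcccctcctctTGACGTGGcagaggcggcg
SEC24A, chr5:134648595-134648624, plus strand: gtgagagtcggTGACGTGGcggcgaggccg
SEC16A, chr9:136484707-136484736, minus strand: tggccctggtgCCACGTCAgccggactgaa
COPA, chr1:160343227-160343256, minus strand: gagagggtcgcTGACGTGGaggcgtccgaa
COPB1, chr11:14499841-14499870, minus strand: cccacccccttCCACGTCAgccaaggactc
COPB2, chr3:139389825-139389854, minus strand: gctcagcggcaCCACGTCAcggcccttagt
COPB2, chr3:139389632-139389661, minus strand: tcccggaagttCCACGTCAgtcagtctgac

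The element lies before the RefSeq start in KDELR3, SSR4, SSR3, SEC62, SRP19, SEC24A and COPB1, spans it in SEC23A, and lies after it in COPA and SEC16A. The overlapping shorter element ACGTGGC was in 19 of 40 members (47.5%, against 5.49% of tested genes), and ACGTG, the core that hypoxia-inducible factors and many other factors share, in 28 (70.0%, against 31.7%). TGATGNAA, the letters of the ATF4 composite element, was in the SRPRB window alone (2.5% of members, 2.91% of tested genes). The ER stress response element (CCAAT, 9 bases, then CCACG) and the related ERSE-II element were in no member window and in 0.133% and 0.124% of tested genes. A match describes these letters in this window and is not a measured site. Carriers of TGACGTGG did not all move one way: among the 11, 3 rose and 5 fell in the low-glucose-tolerant line (median log2 fold change -0.24), and 1 rose and 3 fell in the CoCl2-tolerant line (-0.21). Among the 29 members with a window and no match, 11 rose and 5 fell (median 0.15), and 5 rose and 2 fell (median 0.15), in the same order. Over all tested genes, 34.6% rose and 34.6% fell in the low-glucose-tolerant line, and 17.9% and 18.2% in the CoCl2-tolerant line.

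Across the 45 genes, the low-glucose-tolerant line moved on both sides, and the CoCl2-tolerant line moved fewer genes by less. Changes are log2 fold changes with their standard error (SE), and a gene is said to have risen or fallen where edgeR's quasi-likelihood test gave a Benjamini-Hochberg adjusted p under 0.05 over all tested genes. In the CoCl2-tolerant line, 13 of 45 members were called (28.9%), 6 higher and 7 lower. The background was similar or higher, with 36.1% of all tested genes called, 17.9% higher and 18.2% lower. In the low-glucose-tolerant line, 28 of 45 were called (62.2%), 17 higher and 11 lower. Of all tested genes, 69.2% were called there, 34.6% higher and 34.6% lower. The share of members called was thus near or under the background in both lines. The median log2 fold change of the members was -0.03 and 0.12, beside 0.01 and -0.01 for all tested genes. Levels per kilobase of transcript in control ran from 2.76 CPM per kilobase for SRP19 and 4.47 for SAR1B to 179.9 for TRAM1 and 222 for SRP14. A change of at least 2-fold was called for 1 member in the CoCl2-tolerant line and for 7 in the low-glucose-tolerant line. That count was not made over all tested genes. The median size of the log2 fold change, sign aside, was 0.25 and 0.50 over the members, in the same order. Over all tested genes it was 0.35 and 0.74, so they too moved less in the CoCl2-tolerant line. Both comparisons use the same 3 control libraries, so their calls are not independent. The CoCl2-tolerant count also depended on single libraries. It was 6 without control replicate 1, 7 without control replicate 2, 6 without control replicate 3, 8 without CoCl2-tolerant replicate 1, 7 without CoCl2-tolerant replicate 3, and 24 without low-glucose-tolerant replicate 2, which enters that fit through the shared spread. The 11 members added to the calls without that last library were SRP9, SRP19, SRP68, SEC11A, SAR1B, SEC31A, SEC24B, SEC24C, SEC16A, COPB2 and COPE. The 36.1% of all tested genes belongs to the main fit, and the share without each library is not given here.

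**Figure D1:**
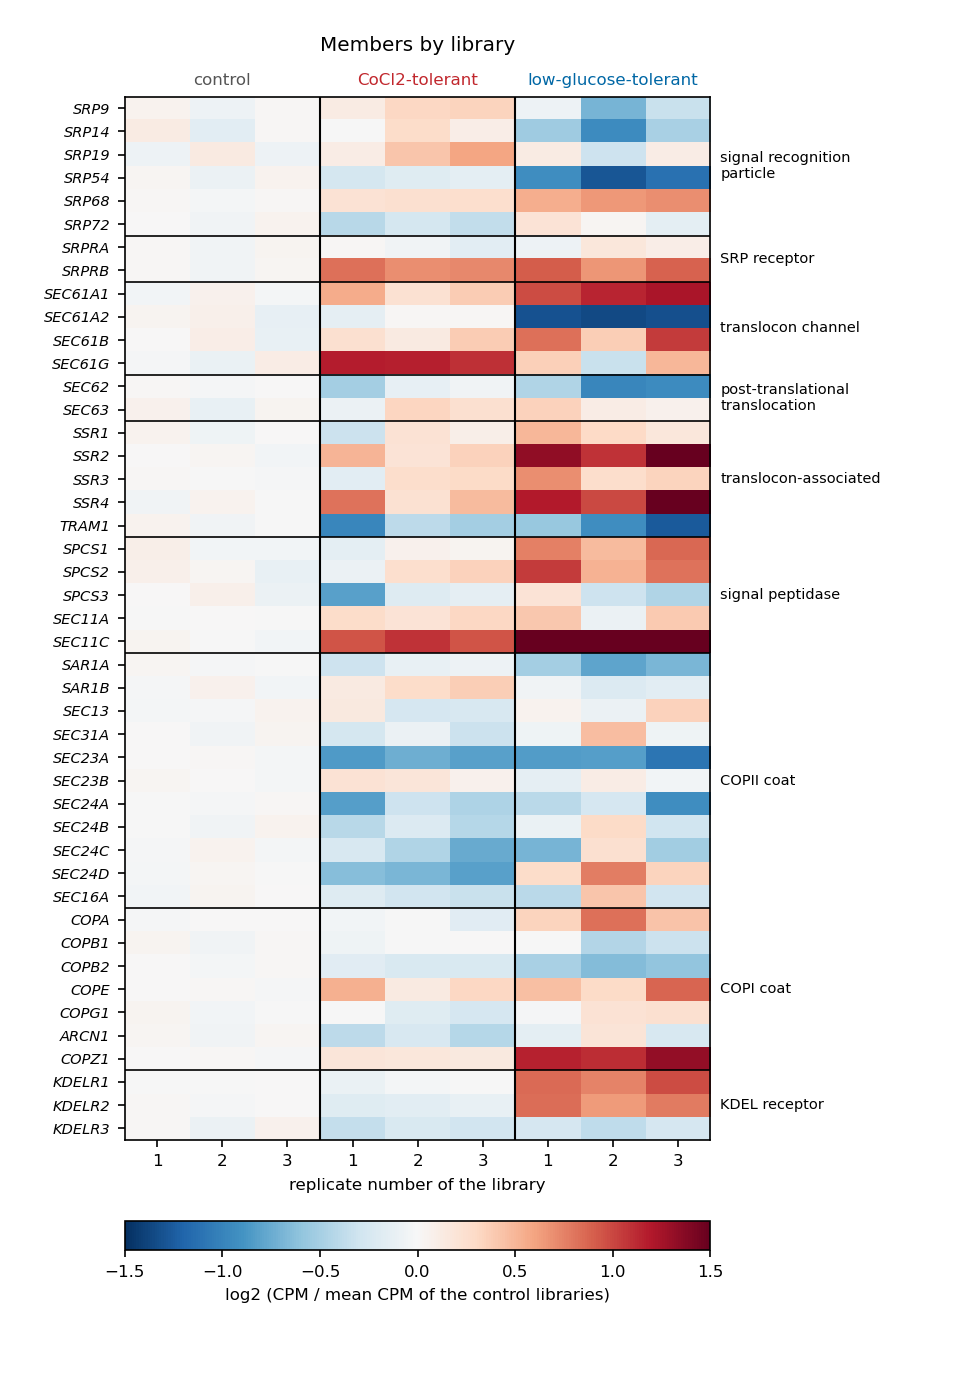
Each row is 1 of the 45 genes, ordered by role, and each column 1 of the 9 libraries. Colour gives the log2 ratio of the library's CPM to the mean CPM of the control libraries, held at 1.5 in either direction. SEC11C, SSR2 and SSR4 are darkest red and SEC61A2 and SRP54 darkest blue in the low-glucose-tolerant libraries, and the SEC61G row is red in the CoCl2-tolerant libraries.

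**Figure D2:**
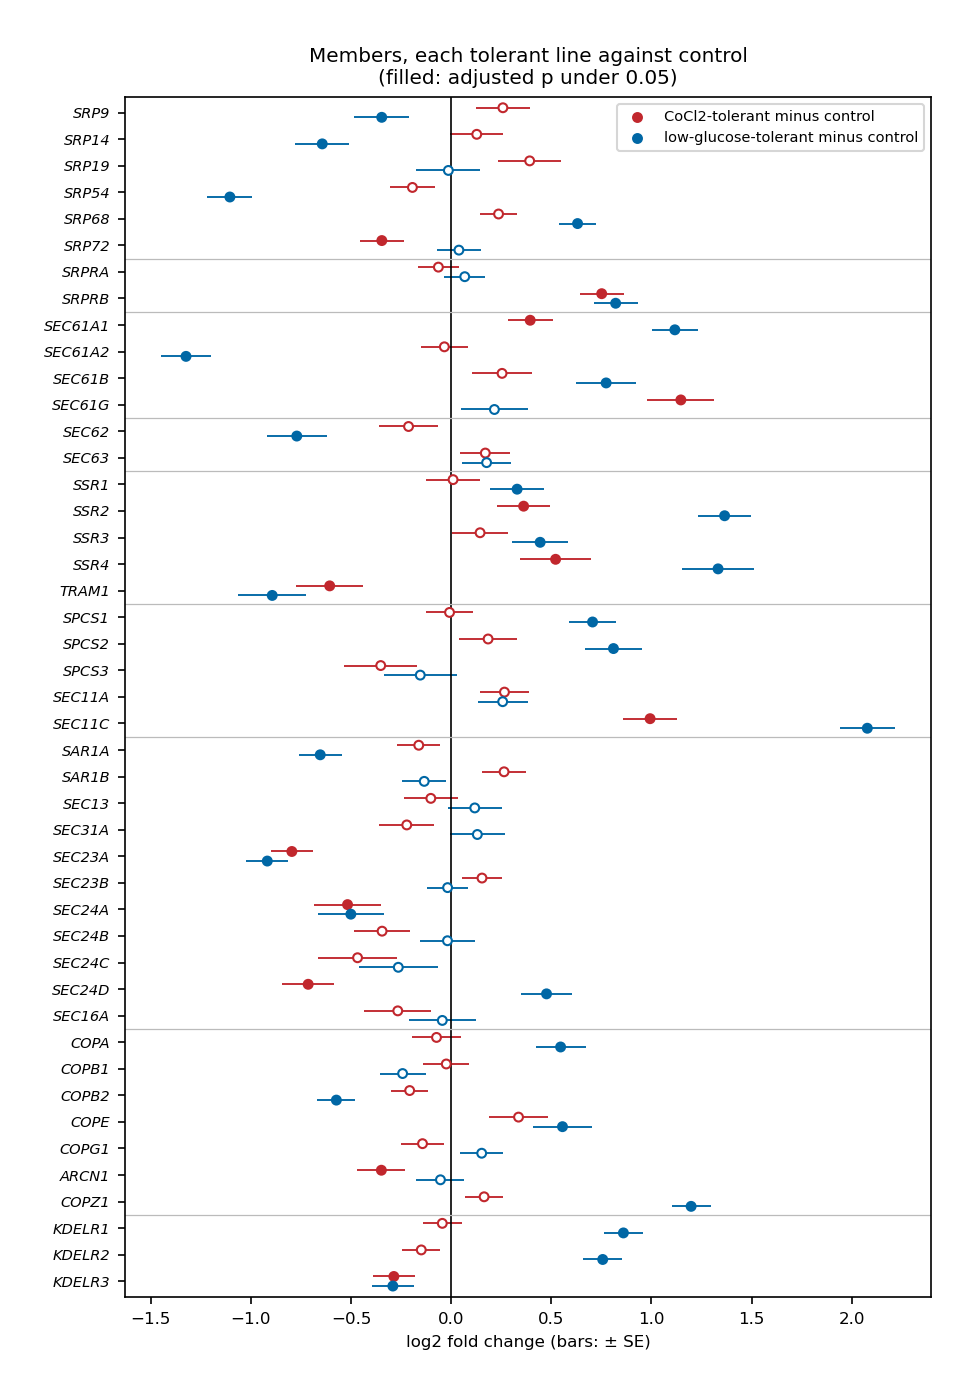
Log2 fold change against control (x axis) of each of the 45 genes, with bars of 1 SE. Red marks the CoCl2-tolerant line and blue the low-glucose-tolerant line, and filled points have an adjusted p under 0.05. SEC24D has filled points on opposite sides of 0, and SEC11C reaches 2.08 in the low-glucose-tolerant line.

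The protein subunits of the SRP did not move together. In the low-glucose-tolerant line SRP54, SRP14 and SRP9 fell, SRP68 rose, and SRP19 and SRP72 were not called. SRP54, the GTPase subunit that binds the signal peptide, was at 73.8, 68.2 and 75 CPM in the control libraries, 60.4, 64 and 65.4 in the CoCl2-tolerant libraries and 37.9, 29.7 and 33.3 in the low-glucose-tolerant libraries. The low-glucose-tolerant libraries were all lower than the other 6, and the change was -1.10 ± 0.11, adjusted p = 7.88e-07. SRP14, which pairs with SRP9 in the domain that slows elongation, was at 261, 214 and 243 CPM in the control libraries, 238, 290.1 and 256 in the CoCl2-tolerant libraries and 165, 124 and 170.5 in the low-glucose-tolerant libraries (-0.64 ± 0.13, adjusted p = 0.000636 in the low-glucose-tolerant line). SRP9 went from 168 ± 7.49 in control to 132 ± 27.7 CPM in the low-glucose-tolerant line (SD, n = 3; -0.35 ± 0.14, adjusted p = 0.0345). The call on SRP9 was lost without control replicate 1 (0.11), 2 (0.052) or 3 (0.0847) or low-glucose-tolerant replicate 2 (0.113) or 3 (0.0635), the values in parentheses being adjusted p. Its change was -0.03, adjusted p = 0.749 once each library's trend on transcript length and GC content was removed. Such a removal also takes out differences between groups that go with length or GC content. SRP68, which forms a dimer with SRP72 on the SRP RNA, rose from 109.9 ± 2.08 to 170.2 ± 9.56 CPM (0.63 ± 0.09, adjusted p = 3.4e-05). The ratio of SRP68 to SRP54, each in CPM per kilobase of transcript, was between 1.3 and 1.38 in the control libraries, 1.76 and 1.85 in the CoCl2-tolerant libraries, and 3.71 and 5.09 in the low-glucose-tolerant libraries. In the CoCl2-tolerant line the 1 SRP call was SRP72, at 137, 131 and 141 CPM in the control libraries, 102, 114 and 106 in the CoCl2-tolerant libraries and 157, 139 and 123 in the low-glucose-tolerant libraries (-0.35 ± 0.11, adjusted p = 0.0233). That call was lost without control replicate 1 (0.074), 2 (0.0532) or 3 (0.0959) or CoCl2-tolerant replicate 1 (0.0674) or 3 (0.0835). SRP68 was at 0.24 there, not called. It was called higher without low-glucose-tolerant replicate 1 (0.0442), 2 (0.023) or 3 (0.0415) and in the Wald test of DESeq2 (0.0382). SRP68 and SRP54 (-0.19) were also called in a fit of the 2 groups alone and once that trend was removed. SRP9 (0.26) was called in the 2-group fit and without low-glucose-tolerant replicate 2 (0.0367). SRP19 had 7.85 ± 0.687 CPM in control, 10.3 ± 1.69 in CoCl2-tolerant and 7.78 ± 1.28 in low-glucose-tolerant libraries (SD, n = 3) and was called in neither line (0.39 ± 0.16, adjusted p = 0.067 with CoCl2). It was called higher in the CoCl2-tolerant line without CoCl2-tolerant replicate 1 (0.52, adjusted p = 0.0257), without low-glucose-tolerant replicate 2 (0.39, adjusted p = 0.0293), in a fit of the 2 groups alone (0.39, adjusted p = 0.0275) and once that trend was removed (0.34, adjusted p = 0.0381). Of SRP19 exon length, 18.2% overlaps other genes on the same strand.

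The 2 subunits of the SRP receptor differed. SRPRB, the membrane-anchored subunit, rose in both lines. It was at 21.6, 20.5 and 21.8 CPM in the control libraries, 37.9, 34.6 and 35.1 in the CoCl2-tolerant libraries and 39.9, 33.7 and 39.4 in the low-glucose-tolerant libraries, and every library of either tolerant line was above every control library. The changes were 0.75 ± 0.11, adjusted p = 0.000131 in the CoCl2-tolerant line and 0.82 ± 0.11, adjusted p = 1.18e-05 in the low-glucose-tolerant line. SRPRA, the GTPase subunit that contacts SRP, was at 127 ± 3.91 CPM in control, 121 ± 7.23 in CoCl2-tolerant and 133 ± 11.5 in low-glucose-tolerant libraries (SD, n = 3) and was called in neither. Of the SRPRB exons, 21.1% overlap other genes, most on the opposite strand, and the strand setting of the authors' counting is not given in the sources used here.

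Within the SEC61 channel, the pore gene SEC61A1 rose in both lines, and its paralogue SEC61A2 fell in the low-glucose-tolerant line. SEC61A1 was at 228, 246 and 231 CPM in the control libraries, 345, 275 and 307 in the CoCl2-tolerant libraries and 463, 517 and 549 in the low-glucose-tolerant libraries. The groups did not overlap and the low-glucose-tolerant libraries were highest. Changes were 0.39 ± 0.11, adjusted p = 0.0139 and 1.12 ± 0.11, adjusted p = 7.61e-07, the first of which was lost without control replicate 1 (0.0674) or 3 (0.0618) or CoCl2-tolerant replicate 1 (0.0538). SEC61A2 (chr10:12129637-12169961, plus strand) was at 13.4, 13.7 and 11.9 CPM in the control libraries, 11.8, 13.1 and 13.1 in the CoCl2-tolerant libraries and 5.27, 5.11 and 5.21 in the low-glucose-tolerant libraries, so that control and CoCl2-tolerant libraries overlapped and the low-glucose-tolerant libraries stood below both (-1.32 ± 0.12, adjusted p = 3.02e-07). Per kilobase of transcript, the ratio of SEC61A1 to SEC61A2 was between 8.84 and 10.1 in the control libraries, 10.9 and 15.2 in the CoCl2-tolerant libraries, and 45.7 and 54.8 in the low-glucose-tolerant libraries.

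The small channel subunits split between the lines. SEC61G (chr7:54752250-54759974, minus strand), the gamma subunit, was at 38.7, 36.3 and 42 CPM in the control libraries, 87.9, 87.8 and 83.3 in the CoCl2-tolerant libraries and 49.9, 30.8 and 55.1 in the low-glucose-tolerant libraries. The 3 CoCl2-tolerant libraries were above all others, and the low-glucose-tolerant libraries lay on both sides of the control libraries, with replicate 2 lowest. The change was 1.15 ± 0.17, adjusted p = 0.00013 in the CoCl2-tolerant line, the largest rise of any member there, and 0.22 ± 0.17, adjusted p = 0.26 in the low-glucose-tolerant line. Without low-glucose-tolerant replicate 2 the latter was 0.44, adjusted p = 0.00132. SEC61B, the beta subunit, was at 29.8, 31.7 and 27.4 CPM in the control libraries, 35, 32.5 and 38.5 in the CoCl2-tolerant libraries and 52.6, 38.2 and 61.1 in the low-glucose-tolerant libraries (0.25 ± 0.15, adjusted p = 0.205 and 0.77 ± 0.15, adjusted p = 0.00037, in the same order). Of the auxiliary subunits for post-translational import, SEC62 was at 103, 100.2 and 102 CPM in the control libraries, 71.7, 93.5 and 98.1 in the CoCl2-tolerant libraries and 74.4, 51.6 and 52.9 in the low-glucose-tolerant libraries. It fell in the low-glucose-tolerant line (-0.77 ± 0.15, adjusted p = 0.000358), where all 3 libraries were under all 3 of control. With the length and GC trend removed its change was -0.24, adjusted p = 0.0314. SEC63, a J-domain protein that recruits the chaperone BiP to the channel, had 80.1 ± 4.99 CPM in control, 90.1 ± 12.8 in CoCl2-tolerant and 90.5 ± 9.67 in low-glucose-tolerant libraries (SD, n = 3) and was called in neither line. With the length and GC trend removed, SEC63 was called in both lines and between them. Without both CoCl2-tolerant replicate 1 and low-glucose-tolerant replicate 2, its CoCl2-tolerant change was 0.28, adjusted p = 0.025.

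All 4 subunits of the translocon-associated protein complex (TRAP), which assists insertion and glycosylation at the channel, rose in the low-glucose-tolerant line, and TRAM1, a membrane protein beside the channel, fell in both lines. The SSR1 and SSR3 calls depended on the setting, as given below. Of all tested genes, 34.6% were called higher and 34.6% lower with low glucose, and 17.9% and 18.2% with CoCl2. SSR2 was at 101, 102 and 97.6 CPM in the control libraries, 143, 116 and 128 in the CoCl2-tolerant libraries and 253, 212 and 310.0 in the low-glucose-tolerant libraries (1.36 ± 0.13, adjusted p = 5.45e-07 in the low-glucose-tolerant line). SSR4 was at 30.2, 32.4 and 31.2 CPM in the control libraries, 54.8, 36.6 and 43.3 in the CoCl2-tolerant libraries and 71.2, 62.3 and 103 in the low-glucose-tolerant libraries (1.33 ± 0.18, adjusted p = 1.19e-05). In both genes the low-glucose-tolerant libraries were above all others. SSR3 rose there by 0.44 ± 0.14, adjusted p = 0.0108 and SSR1 by 0.33 ± 0.14, adjusted p = 0.0426. The SSR3 call was lost without low-glucose-tolerant replicate 1 (0.0558), and the SSR1 call without control replicate 1 (0.0695), 2 (0.126) or 3 (0.091), CoCl2-tolerant replicate 3 (0.0537) or low-glucose-tolerant replicate 1 (0.149). With the length and GC trend removed their changes were 0.71, adjusted p = 1.6e-06 and 0.86, adjusted p = 3.44e-06. With scaling by library totals the adjusted p was 0.0539 for SSR3 and 0.176 for SSR1. SSR2 and SSR4 also passed in the CoCl2-tolerant line (0.36 ± 0.13, adjusted p = 0.0454 and 0.52 ± 0.18, adjusted p = 0.0329). Those calls were lost without control replicate 1 (0.117), 2 (0.103) or 3 (0.135), CoCl2-tolerant replicate 1 (0.144) or 3 (0.098) or low-glucose-tolerant replicate 1 (0.051) for SSR2, and without control replicate 1 (0.0995), 2 (0.0737) or 3 (0.0839) or CoCl2-tolerant replicate 1 (0.144) or 3 (0.0622) for SSR4. A pseudogene of SSR4, counted as a gene of its own, held 3.58% as many counts. TRAM1 was at 521, 482 and 499 CPM in the control libraries, 254, 381 and 352 in the CoCl2-tolerant libraries and 337, 263 and 209 in the low-glucose-tolerant libraries, highest in every control library. Its changes were -0.61 ± 0.17, adjusted p = 0.0121 and -0.89 ± 0.17, adjusted p = 0.000284, the second of which was -0.58, adjusted p = 5.8e-05 with the length and GC trend removed.

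Signal peptidase holds 1 of 2 catalytic paralogues, SEC11A or SEC11C, and the minor one rose in both lines. SEC11C (chr18:59139477-59158836, plus strand) was at 9.2, 8.85 and 8.67 CPM in the control libraries, 17.1, 18.9 and 17.2 in the CoCl2-tolerant libraries and 40.1, 30.4 and 42.3 in the low-glucose-tolerant libraries. The 3 groups did not overlap, and control was lowest. The changes were 0.99 ± 0.14, adjusted p = 7.23e-05 and 2.08 ± 0.14, adjusted p = 8.41e-09, the latter a 4.22-fold rise and the largest change of any member. SEC11A was at 128, 129 and 128 CPM in the control libraries, 156, 148 and 159.6 in the CoCl2-tolerant libraries and 171, 121 and 169 in the low-glucose-tolerant libraries and was called in neither line (0.27 ± 0.12, adjusted p = 0.11 and 0.26 ± 0.12, adjusted p = 0.0794). Low-glucose-tolerant replicate 2 was the lowest of the 9 libraries for SEC11A, and without it the low-glucose-tolerant change was 0.41, adjusted p = 0.000502 and the CoCl2-tolerant change 0.27, adjusted p = 0.00992. The ratio of SEC11C to SEC11A per kilobase was between 0.0931 and 0.0987 in the control libraries, 0.148 and 0.175 in the CoCl2-tolerant libraries, and 0.324 and 0.346 in the low-glucose-tolerant libraries. SPCS1 and SPCS2, accessory subunits, rose in the low-glucose-tolerant line alone, by 0.71 ± 0.12, adjusted p = 0.000101 and 0.81 ± 0.14, adjusted p = 0.000175, with 46.6 ± 2.37 and 39 ± 2.7 CPM in control and 75.9 ± 10.1 and 68.4 ± 12.2 CPM there (SD, n = 3). The direct comparison gave a difference between the tolerant lines for both, as given below. Without both CoCl2-tolerant replicate 1 and low-glucose-tolerant replicate 2, SPCS2 was called higher in the CoCl2-tolerant line too (0.30, adjusted p = 0.0215). SPCS2P4, a pseudogene of SPCS2 counted as a gene of its own, held 7.16% as many counts as SPCS2, and reads that both could give may have been split between them. Of SPCS1 exon length, 58.1% overlaps NEK4 and GLT8D1 on the opposite strand, and with the strand setting unknown their reads cannot be told apart. SPCS3, the remaining accessory subunit, had 151 ± 8.18 CPM in control, 118 ± 28.4 in CoCl2-tolerant and 136 ± 34.3 in low-glucose-tolerant libraries (SD, n = 3) and was called in neither line. Its CoCl2-tolerant libraries were at 85.6, 132 and 137 CPM, with replicate 1 lowest.

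**Figure D3:**
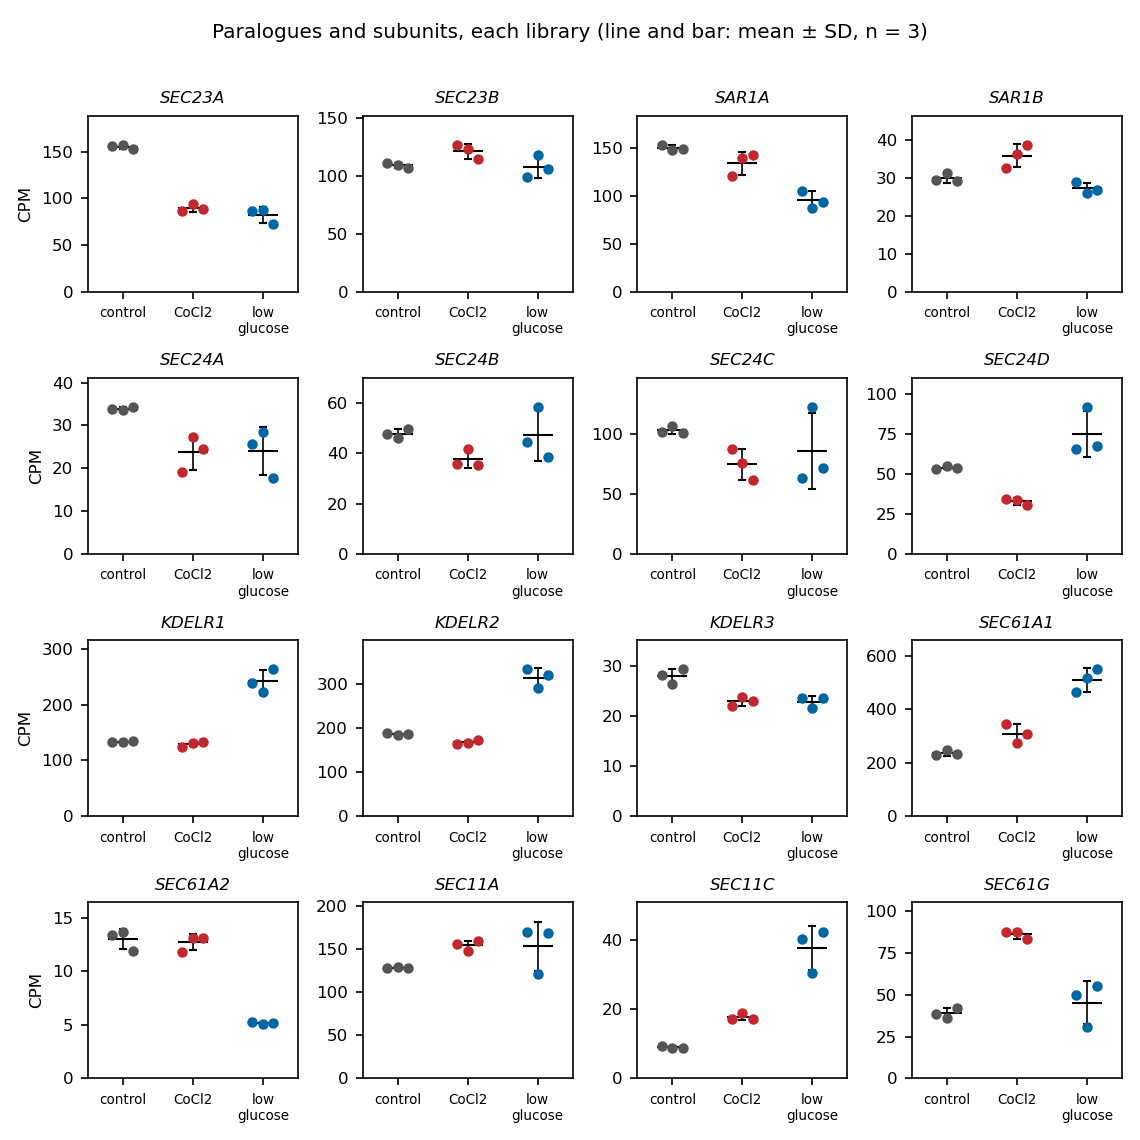
CPM on a linear axis from 0 for 16 paralogues and subunits, 1 point per library, with the mean and SD of 3 libraries. SEC23A is lower in both tolerant lines beside a level SEC23B, SEC24D is split between the lines, KDELR1 and KDELR2 are higher in the low-glucose-tolerant libraries alone, and SEC61G is higher in the CoCl2-tolerant libraries.

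Of the 11 COPII genes, 3 fell and none rose in the CoCl2-tolerant line, and 3 fell and 1 rose in the low-glucose-tolerant line. With CoCl2 that was 27.3% lower, beside 18.2% lower and 17.9% higher of all tested genes. With low glucose it was 27.3% lower and 9.09% higher, beside 34.6% and 34.6%. Those called were SAR1A and the inner coat genes SEC23A, SEC24A and SEC24D. SEC23A (chr14:39031919-39109646, minus strand), the inner coat GTPase activator of SAR1, was at 156, 157 and 153 CPM in the control libraries, 86.1, 93.8 and 88.7 in the CoCl2-tolerant libraries and 86.9, 87.3 and 72.4 in the low-glucose-tolerant libraries. Every library of either tolerant line was below every control library. Changes were -0.80 ± 0.10, adjusted p = 5.06e-05 and -0.92 ± 0.10, adjusted p = 2.43e-06. SEC23B, its paralogue, was at 111, 109 and 106 CPM in the control libraries, 127, 123 and 114 in the CoCl2-tolerant libraries and 99, 118 and 106 in the low-glucose-tolerant libraries, with no call in either line. The ratio of SEC23A to SEC23B per kilobase was between 1.18 and 1.21 in the control libraries, 0.573 and 0.655 in the CoCl2-tolerant libraries, and 0.575 and 0.739 in the low-glucose-tolerant libraries. The order of the paralogues was thus reversed in all 6 tolerant libraries.

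The 4 SEC24 paralogues, which bind the cargo, differed from each other. SEC24D (chr4:118722823-118838683, minus strand) was at 52.8, 54.9 and 53.6 CPM in the control libraries, 34.4, 33.4 and 30.5 in the CoCl2-tolerant libraries and 65.3, 91.6 and 67.7 in the low-glucose-tolerant libraries. The CoCl2-tolerant libraries were all below and the low-glucose-tolerant libraries all above the control libraries, with changes of -0.71 ± 0.13, adjusted p = 0.000798 and 0.48 ± 0.13, adjusted p = 0.00433. SEC24D was the 1 member called in opposite directions. Without low-glucose-tolerant replicate 2, its highest library, the rise was 0.31, adjusted p = 0.00796. SEC24A was at 33.9, 33.6 and 34.2 CPM in the control libraries, 19.1, 27.3 and 24.6 in the CoCl2-tolerant libraries and 25.7, 28.5 and 17.7 in the low-glucose-tolerant libraries, below control in all 6 tolerant libraries (-0.52 ± 0.17, adjusted p = 0.0248 and -0.50 ± 0.16, adjusted p = 0.0144). Its CoCl2-tolerant call was lost without control replicate 1 (0.0639), 2 (0.0649) or 3 (0.0687) or CoCl2-tolerant replicate 1 (0.0947) or 3 (0.0575), and its low-glucose-tolerant call without low-glucose-tolerant replicate 3 (0.0643). With the length and GC trend removed, SEC24A changed by -0.33, adjusted p = 0.0099 and by -0.07, adjusted p = 0.531.

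SEC24B was at 47.6, 46 and 49.6 CPM in the control libraries, 35.8, 41.5 and 35.4 in the CoCl2-tolerant libraries and 44.5, 58.2 and 38.6 in the low-glucose-tolerant libraries (-0.35 ± 0.14, adjusted p = 0.0676 and -0.02 ± 0.14, adjusted p = 0.912). SEC24C was at 102, 107 and 101 CPM in the control libraries, 87.3, 75.5 and 61.2 in the CoCl2-tolerant libraries and 63.5, 122 and 72 in the low-glucose-tolerant libraries (-0.47 ± 0.20, adjusted p = 0.0799 and -0.26 ± 0.20, adjusted p = 0.246). In both genes low-glucose-tolerant replicate 2 was the highest of the 9 libraries and the other 2 of that line lay below control. Without it, SEC24C changed by -0.60, adjusted p = 0.00109 in the low-glucose-tolerant line and by -0.47, adjusted p = 0.00539 in the CoCl2-tolerant line, and SEC24B by -0.34, adjusted p = 0.0115 in the latter. An annotated transcript still to be experimentally checked, on the opposite strand, covers 42.9% of the SEC24C exons.

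SAR1A, the GTPase that starts coat assembly, was at 153, 148 and 149 CPM in the control libraries, 121, 139 and 142 in the CoCl2-tolerant libraries and 105, 87.1 and 93.7 in the low-glucose-tolerant libraries. It fell in the low-glucose-tolerant line (-0.65 ± 0.11, adjusted p = 8.66e-05), by -0.32, adjusted p = 0.00666 with the length and GC trend removed. SAR1B, the paralogue known for chylomicron export, was at 29.4, 31.2 and 29.1 CPM in the control libraries, 32.7, 36.3 and 38.6 in the CoCl2-tolerant libraries and 28.9, 25.9 and 26.8 in the low-glucose-tolerant libraries, called against control in neither line (0.26 ± 0.11, adjusted p = 0.0707 and -0.13 ± 0.11, adjusted p = 0.281). SAR1B was called higher in the CoCl2-tolerant line without CoCl2-tolerant replicate 1 (0.33, adjusted p = 0.0382), without low-glucose-tolerant replicate 2 (0.26, adjusted p = 0.0361), in a fit of the 2 groups alone (0.26, adjusted p = 0.0233) and after removal of the length and GC trend (0.47, adjusted p = 0.00112). That removal turned its low-glucose-tolerant change to 0.34, adjusted p = 0.00503. SAR1A to SAR1B per kilobase stood at between 5.31 and 5.82 in the control libraries, 4.12 and 4.29 in the CoCl2-tolerant libraries, and 3.76 and 4.08 in the low-glucose-tolerant libraries. SAR1B and SEC24A overlap head to head on chromosome 5, where 5.35% of SEC24A and 3.51% of SAR1B exon length is shared. The outer coat genes SEC13 and SEC31A and the scaffold SEC16A were called in neither line, with means of 93.7 ± 2.93 CPM in control, 87.4 ± 14.4 in CoCl2-tolerant and 102 ± 16 in low-glucose-tolerant libraries for SEC13, 214 ± 6.97 CPM in control, 183 ± 15.5 in CoCl2-tolerant and 234 ± 52.1 in low-glucose-tolerant libraries for SEC31A and 142 ± 4.32 CPM in control, 118 ± 6.11 in CoCl2-tolerant and 138 ± 45.4 in low-glucose-tolerant libraries for SEC16A (SD, n = 3). Without low-glucose-tolerant replicate 2, whose SEC16A level was the highest of the 9 libraries, SEC16A changed by -0.27, adjusted p = 0.0149 in the CoCl2-tolerant line and by -0.34, adjusted p = 0.00393 in the low-glucose-tolerant line. Of the outer coat genes, SEC31A changed by -0.22, adjusted p = 0.0426 in the CoCl2-tolerant line without that library.

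Of the 7 COPI subunits, which form 1 coat, 3 rose and 1 fell in the low-glucose-tolerant line, and 1 fell in the CoCl2-tolerant line. With low glucose that was 42.9% higher and 14.3% lower, beside 34.6% and 34.6% of all tested genes. With CoCl2 it was 14.3% lower, beside 18.2% lower and 17.9% higher. COPZ1, the zeta subunit, was at 142, 145 and 140.2 CPM in the control libraries, 161, 159.8 and 157 in the CoCl2-tolerant libraries and 317, 308 and 355 in the low-glucose-tolerant libraries, and rose in the low-glucose-tolerant line (1.20 ± 0.10, adjusted p = 8.15e-08). COPA, the alpha subunit, rose from 297 ± 3.17 to 434 ± 81.2 CPM (SD, n = 3; 0.55 ± 0.12, adjusted p = 0.00129). COPE, the epsilon subunit, rose from 37.5 ± 0.421 to 55.1 ± 11.9 CPM (0.56 ± 0.15, adjusted p = 0.00375), or by 0.35, adjusted p = 0.000596 with the length and GC trend removed. COPB2, the beta-prime subunit, fell from 185 ± 3.11 to 125 ± 7.34 CPM (-0.57 ± 0.09, adjusted p = 8.44e-05). COPB1, COPG1 and ARCN1, the beta, gamma and delta subunits, were not called in that line, at -0.24, 0.15 and -0.05. COPB1 was called lower there without low-glucose-tolerant replicate 1 (-0.37, adjusted p = 0.0057). It was also called with scaling by library totals (0.021) and with the stricter filter (0.015). ARCN1 was the 1 COPI call in the CoCl2-tolerant line. It was at 173, 165 and 173 CPM in the control libraries, 129.6, 145 and 127 in the CoCl2-tolerant libraries and 154, 195 and 144 in the low-glucose-tolerant libraries, and all 3 CoCl2-tolerant libraries were under control (-0.35 ± 0.12, adjusted p = 0.0349). That call was lost without control replicate 1 (0.103), 2 (0.0741) or 3 (0.107) or CoCl2-tolerant replicate 1 (0.0849) or 3 (0.131).

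Of the KDEL receptors, KDELR1 and KDELR2 rose and KDELR3 fell in the low-glucose-tolerant line. KDELR1 was at 133, 133 and 134 CPM in the control libraries, 125, 131 and 132 in the CoCl2-tolerant libraries and 239.7, 223 and 264 in the low-glucose-tolerant libraries (0.86 ± 0.10, adjusted p = 2.67e-06). KDELR2 was at 188, 184 and 186 CPM in the control libraries, 164, 167 and 172 in the CoCl2-tolerant libraries and 333, 289.7 and 319.9 in the low-glucose-tolerant libraries (0.76 ± 0.10, adjusted p = 7.38e-06). For both, the low-glucose-tolerant libraries were above all others. The CoCl2-tolerant changes were -0.04 ± 0.10, adjusted p = 0.753 for KDELR1 and -0.15 ± 0.10, adjusted p = 0.242 for KDELR2. KDELR3 was at 28.2, 26.4 and 29.3 CPM in the control libraries, 21.9, 23.9 and 23 in the CoCl2-tolerant libraries and 23.6, 21.5 and 23.6 in the low-glucose-tolerant libraries, below control in all 6 tolerant libraries (-0.29 ± 0.11, adjusted p = 0.0474 and -0.29 ± 0.11, adjusted p = 0.0238). The KDELR3 calls were lost without control replicate 1 (0.142), 2 (0.0794) or 3 (0.18) or CoCl2-tolerant replicate 1 (0.118), 2 (0.0769) or 3 (0.125) in the CoCl2-tolerant line, and without control replicate 1 (0.0864) or 3 (0.109) in the low-glucose-tolerant line. The ratio of KDELR1 to KDELR3 per kilobase was between 5.09 and 5.57 in the control libraries, 6.09 and 6.38 in the CoCl2-tolerant libraries, and 11.3 and 12.4 in the low-glucose-tolerant libraries.

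Set directly against each other, the tolerant lines differed at 27 of 45 members (60.0%), 10 higher and 17 lower in the CoCl2-tolerant line. Of all tested genes 63.9% were called in this comparison, 31.9% higher and 32.0% lower. All 6 SRP genes were called, with SRP54, SRP14, SRP9 and SRP19 higher and SRP68 and SRP72 lower in the CoCl2-tolerant line. The signal peptidase subunits SPCS1 (-0.71 ± 0.12, adjusted p = 0.000115), SPCS2 (-0.63 ± 0.14, adjusted p = 0.00165) and SEC11C (-1.08 ± 0.13, adjusted p = 5.69e-06) were lower in it, and so were KDELR1 (-0.90 ± 0.10, adjusted p = 2.13e-06) and KDELR2 (-0.91 ± 0.10, adjusted p = 1.66e-06). SEC61A2 (1.29 ± 0.12, adjusted p = 5.49e-07) and SEC61G (0.93 ± 0.17, adjusted p = 0.000215) were higher. The widest gap with the CoCl2-tolerant line lower was SEC24D (-1.19 ± 0.13, adjusted p = 2.28e-06), followed by SEC11C, COPZ1 (-1.03 ± 0.10, adjusted p = 4.78e-07) and SSR2 (-1.0 ± 0.13, adjusted p = 1.42e-05). SRPRB (-0.07 ± 0.11, adjusted p = 0.59), SEC23A (0.12 ± 0.10, adjusted p = 0.315), SEC24A (-0.02 ± 0.17, adjusted p = 0.938) and KDELR3 (0.00 ± 0.11, adjusted p = 0.971) were not called between the lines. Calls on SRP19, SEC31A, ARCN1, COPG1 and SAR1B rested on the setting. SRP19 was lost without control replicate 1 (0.0579) or 3 (0.0529), CoCl2-tolerant replicate 2 (0.0834) or 3 (0.173) or low-glucose-tolerant replicate 2 (0.131), SEC31A without control replicate 2 (0.0509), CoCl2-tolerant replicate 1 (0.0772) or 3 (0.121) or low-glucose-tolerant replicate 2 (0.135), ARCN1 without control replicate 1 (0.0588), 2 (0.0635) or 3 (0.0635), CoCl2-tolerant replicate 1 (0.0918) or 3 (0.14) or low-glucose-tolerant replicate 2 (0.135) and COPG1 without CoCl2-tolerant replicate 2 (0.0815) or 3 (0.117) or low-glucose-tolerant replicate 3 (0.0562). SAR1B lost its call once the length and GC trend was removed (0.13, adjusted p = 0.222).

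Other genes of the same routes were taken from 3 lists that hold none of the 45, with 85 genes tested. The lists were chosen with earlier results of these data known, so their counts are not independent of these data. In the CoCl2-tolerant line 18 of the 85 rose and 3 fell (24.7% called, 21.2% higher and 3.53% lower, beside 36.1% called, 17.9% higher and 18.2% lower for all tested genes, with medians of 0.09 and 0.01). In the low-glucose-tolerant line 55 rose and 8 fell (74.1% called, median log2 fold change 0.48, beside 69.2% and -0.01 for all tested genes). Of the 85, 64.7% were higher and 9.41% lower there, beside 34.6% and 34.6% of all tested genes. Between the tolerant lines, 10 were higher and 47 lower in the CoCl2-tolerant line (11.8% and 55.3%, beside 31.9% and 32.0% of all tested genes). The CoCl2-tolerant count of 21 was 11 without control replicate 1, 13 without control replicate 2, 12 without control replicate 3 and 32 without low-glucose-tolerant replicate 2. The share of all tested genes called without each of these libraries is not given here.

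Among 29 other translocation genes (chaperones at the channel, nascent-chain binding, tail-anchor insertion and the ER membrane protein complex), 8 rose and none fell in the CoCl2-tolerant line, and 20 rose and 3 fell in the low-glucose-tolerant line. As shares, that was 27.6% higher with CoCl2, and 69.0% higher and 10.3% lower with low glucose. Over all tested genes, 17.9% were higher and 18.2% lower with CoCl2, and 34.6% and 34.6% with low glucose. HYOU1, an ER chaperone and exchange factor of the chaperone BiP, was at 215, 223 and 222 CPM in the control libraries, 207, 188 and 183 in the CoCl2-tolerant libraries and 730.0, 914 and 815 in the low-glucose-tolerant libraries (1.90 ± 0.11, adjusted p = 2.86e-09). Its CoCl2-tolerant change was -0.19 ± 0.11, adjusted p = 0.181. SIL1, another exchange factor of BiP, differed between the tolerant lines (-0.86 ± 0.12, adjusted p = 3.14e-05) and so did CAMLG, a receptor for tail-anchored proteins (-0.78 ± 0.13, adjusted p = 0.00011). TMEM208, of an SRP-independent route, rose in both lines, from 10.4 ± 0.596 to 19.3 ± 2.91 and 28.4 ± 7.0 CPM (0.90 ± 0.17, adjusted p = 0.00112 and 1.45 ± 0.17, adjusted p = 3.44e-06). NACA, which binds nascent chains, rose in the low-glucose-tolerant line (1.10 ± 0.15, adjusted p = 1.82e-05). It was also called higher in the CoCl2-tolerant line. That call was lost without control replicate 1 (0.0997), 2 (0.0851) or 3 (0.118) or CoCl2-tolerant replicate 1 (0.107) or 3 (0.104). EMC3 (0.72 ± 0.12, adjusted p = 0.000328), EMC9 (0.63 ± 0.17, adjusted p = 0.0108) and EMC7 (0.59 ± 0.12, adjusted p = 0.00205) of the ER membrane protein complex, and the channel partner CCDC47 (0.57 ± 0.10, adjusted p = 0.000567), rose in the CoCl2-tolerant line. The EMC9 call was lost without control replicate 1 (0.0572). EMC7 was also called higher in the low-glucose-tolerant line. That call was lost without control replicate 1 (0.0507), 2 (0.086) or 3 (0.0517) or low-glucose-tolerant replicate 1 (0.0607) or 3 (0.0717). GET4 (1.33 ± 0.23, adjusted p = 0.000124) and EMC6 (1.22 ± 0.26, adjusted p = 0.000776) also rose in the low-glucose-tolerant line, but 80.8% and 74.3% of their exon length overlaps other genes.

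On the ER export side, 7 of 27 genes rose and 1 fell in the CoCl2-tolerant line, and 15 rose and 1 fell in the low-glucose-tolerant line. With CoCl2 that was 25.9% higher and 3.70% lower, beside 17.9% and 18.2% of all tested genes. With low glucose it was 55.6% and 3.70%, beside 34.6% and 34.6%. MCFD2, a cargo receptor subunit for clotting factors, was at 107, 105 and 106 CPM in the control libraries, 107, 113 and 114 in the CoCl2-tolerant libraries and 361, 389 and 333 in the low-glucose-tolerant libraries (1.77 ± 0.10, adjusted p = 1.99e-09). BET1 (1.54 ± 0.17, adjusted p = 1.73e-06) and STX5 (1.03 ± 0.12, adjusted p = 2.2e-06), fusion proteins of ER-to-Golgi vesicles, and MIA2 (1.38 ± 0.15, adjusted p = 1.3e-06), an organiser of ER exit sites, also rose there. SEC31B, the minor outer coat paralogue, was at 20.4, 23.9 and 20.8 CPM in the control libraries, 28.7, 26.9 and 24.9 in the CoCl2-tolerant libraries and 3.5, 3.22 and 3.22 in the low-glucose-tolerant libraries, and fell in the low-glucose-tolerant line (-2.71 ± 0.13, adjusted p = 4.24e-10). In the CoCl2-tolerant line the cargo receptor CNIH4 (0.68 ± 0.11, adjusted p = 0.000317), the tether subunit TRAPPC3 (0.49 ± 0.12, adjusted p = 0.00657) and the fusion proteins BET1 (0.47 ± 0.17, adjusted p = 0.044) and GOSR2 (0.41 ± 0.10, adjusted p = 0.00667) rose. The BET1 call there was lost without control replicate 1 (0.107), 2 (0.114) or 3 (0.106) or CoCl2-tolerant replicate 2 (0.114) or 3 (0.191), and the GOSR2 call without control replicate 3 (0.05).

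CREB3L2, an ER membrane transcription factor known to activate SEC23A during collagen export, was the 1 gene on the export list that fell in the CoCl2-tolerant line. It was at 112, 115 and 114 CPM in the control libraries, 45.2, 53 and 47.3 in the CoCl2-tolerant libraries and 123, 209 and 113 in the low-glucose-tolerant libraries (-1.23 ± 0.18, adjusted p = 0.000155 and 0.38 ± 0.18, adjusted p = 0.07). In the same libraries COL1A1, a known large cargo of COPII and a gene of the fibroblast list, was at 1823, 1871 and 1870.5 CPM in the control libraries, 270.0, 240.5 and 239.9 in the CoCl2-tolerant libraries and 19.5, 21.7 and 23.2 in the low-glucose-tolerant libraries. SEC23A, as given above, was low in both tolerant lines, CREB3L2 low in the CoCl2-tolerant line and high in 1 low-glucose-tolerant library, and COL1A1 lowest in the low-glucose-tolerant line. Any link among these 3 genes was not tested.

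Among 29 genes of Golgi-to-ER return, 3 rose and 2 fell in the CoCl2-tolerant line, and 20 rose and 4 fell in the low-glucose-tolerant line. With CoCl2 that was 10.3% higher and 6.90% lower, beside 17.9% and 18.2% of all tested genes. With low glucose it was 69.0% and 13.8%, beside 34.6% and 34.6%. COPZ2 (1.94 ± 0.22, adjusted p = 2.54e-06) and COPG2 (1.08 ± 0.11, adjusted p = 6.33e-07), the minor paralogues of the zeta and gamma subunits, rose in the low-glucose-tolerant line. COPG2 was at 14.6, 14.8 and 13.2 CPM in the control libraries, 11.6, 11.8 and 12.3 in the CoCl2-tolerant libraries and 30.5, 30.6 and 28.9 in the low-glucose-tolerant libraries, apart from COPG1, which was not called there. USE1, a fusion protein of retrograde vesicles, rose in both lines (0.57 ± 0.14, adjusted p = 0.00678 and 1.11 ± 0.14, adjusted p = 7.34e-06), and TMED10, a cargo receptor of both coats, differed between the tolerant lines (-0.96 ± 0.10, adjusted p = 7.69e-07). ARFGAP1, which switches off the coat GTPase ARF1, was at 253, 269 and 263 CPM in the control libraries, 204, 152 and 174 in the CoCl2-tolerant libraries and 74, 75.6 and 90.4 in the low-glucose-tolerant libraries, and fell in both lines (-0.57 ± 0.12, adjusted p = 0.00263 and -1.71 ± 0.13, adjusted p = 2.82e-08). GOLGB1, a Golgi tether, fell in the low-glucose-tolerant line (-1.19 ± 0.14, adjusted p = 3.83e-06). In the CoCl2-tolerant line the small GTPase ARF4 (0.38 ± 0.11, adjusted p = 0.017) and the cargo receptor TMED9 (0.50 ± 0.15, adjusted p = 0.0211) rose, and the small GTPase ARF3 (-0.37 ± 0.11, adjusted p = 0.0148) fell. The ARF4 call was lost without control replicate 1 (0.0794), 2 (0.0614) or 3 (0.0524) or CoCl2-tolerant replicate 2 (0.0606) or 3 (0.0863), the TMED9 call without control replicate 1 (0.0783) or 3 (0.0688) or CoCl2-tolerant replicate 1 (0.0951), and the ARF3 call without control replicate 2 (0.067) or CoCl2-tolerant replicate 3 (0.0889). TMED9 was also called higher in the low-glucose-tolerant line. That call was lost without control replicate 1 (0.11), 2 (0.0607) or 3 (0.0987). It was also lost without CoCl2-tolerant replicate 3 (0.0526) or low-glucose-tolerant replicate 1 (0.0556) or 3 (0.197). Between the tolerant lines, ARF4 was called lower in the CoCl2-tolerant line, a call lost without CoCl2-tolerant replicate 1 (0.0634).

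Some members lie where neighbouring genes moved together in the low-glucose-tolerant line. Tested protein-coding genes had a median log2 fold change there of 0.67 on chromosome 7 (642 genes, 63.7% higher), -0.48 on chromosome 5 (629 genes, 54.8% lower) and -0.51 on chromosome 15 (460 genes, 58.0% lower). KDELR2 and SEC61G are on chromosome 7, SRP19, SEC24A and SAR1B on chromosome 5, and SRP14 and SEC11A on chromosome 15. GET4, BET1 and COPG2, named above among the other pathway genes that rose in the low-glucose-tolerant line, also lie on chromosome 7. Around KDELR2, whose own change was 0.76, the 20 nearest tested protein-coding genes, 10 on each side, had a median of 0.90, and 15 of them rose. Around SRP14, at -0.64, the median was -0.71 and 13 of 20 fell. The neighbours of SEC61G had a median of 0.63 in the low-glucose-tolerant line, where the gene itself was at 0.22, and of 0.08 in the CoCl2-tolerant line, where it was at 1.15. SEC11C, on chromosome 18, rose among neighbours with medians of -0.16 and -0.14. SRPRB, on chromosome 3, rose among neighbours with medians of -0.34 in the low-glucose-tolerant and -0.13 in the CoCl2-tolerant line. Over the 45 members, the change of a gene and the median of its neighbours correlated at Pearson's r = 0.30 in the low-glucose-tolerant line and 0.05 in the CoCl2-tolerant line. These points share libraries, and some members share neighbours. The part of position in the changes of single members was not tested.

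Transcript length and GC content moved with the members. Within the low-glucose-tolerant line, each library was set against the mean of the other 2. Over the 45 members this deviation correlated with log2 transcript length at r = -0.05 for replicate 1, 0.65 for replicate 2 and -0.78 for replicate 3, beside -0.09, 0.41 and -0.38 over 17707 tested genes. In replicate 2 the members under the median length of 3069 bases were on average -0.32 from the other libraries and the longer ones 0.15. Of the COPII genes, SEC23A, SEC23B, the 4 SEC24 genes, SEC31A and SEC16A were highest in replicate 2 of the 3, and the short SEC61B, SEC61G and SEC11A were lowest there. SAR1A and SAR1B, which at 5981 and 6682 bases are longer than SEC24B, SEC24C and SEC24D, went the other way and were lowest in replicate 2. Of the COPI genes, COPA, ARCN1 and COPG1 deviated by 0.44, 0.39 and 0.10 in replicate 2. COPE, COPB1, COPZ1 and COPB2 deviated by -0.37, -0.28, -0.13 and -0.11 there. Between groups, the median change of the 22 shorter members was 0.21 in the CoCl2-tolerant and 0.59 in the low-glucose-tolerant line, and that of the 23 others was -0.21 and -0.02. The correlation of change with length was -0.50 and -0.33 over the members and -0.14 and -0.02 over 17707 genes. With GC content the correlation was 0.32 and 0.51 over the members and 0.0066 and 0.14 over those genes, so in the low-glucose-tolerant line it was larger in size for GC content than for length. These genes share libraries and length goes with function in the list, since the SEC24 genes and SEC16A are long and several channel and peptidase subunits short. The part of length and GC content in the changes was not tested. The values with the trend removed, which stand beside the genes above, also lack group differences that go with length or GC content.

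**Figure D4:**
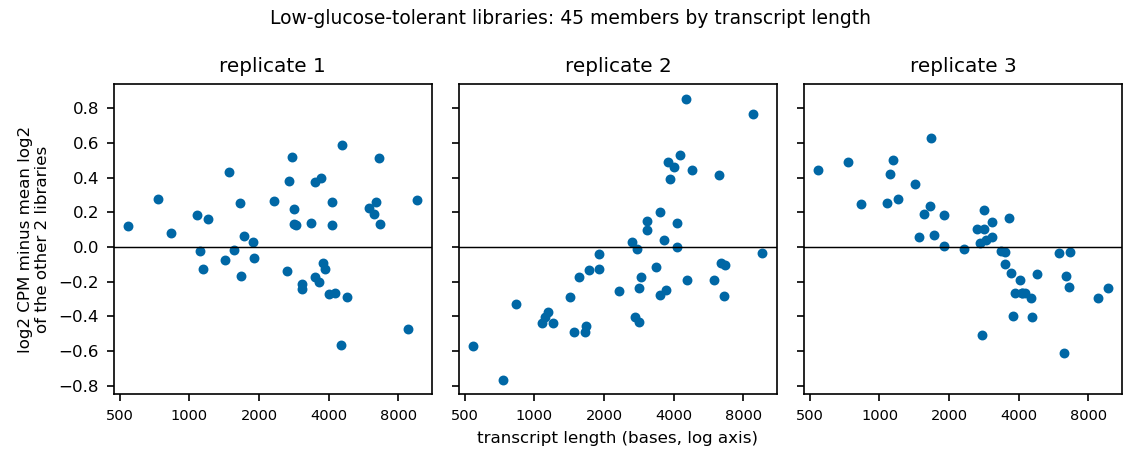
Each panel is 1 low-glucose-tolerant library, and each point 1 of the 45 genes, placed by transcript length in bases (log axis) and by its log2 CPM minus the mean of the other 2 libraries. The points rise with length in replicate 2 and fall with length in replicate 3, with r = -0.05 in replicate 1.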

How the data were processed

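The files hold raw counts per gene, deposited for each of the 9 libraries (36018 genes, whole numbers, 25178615 to 32674687 counts per library). Per the submitters' processing notes, the authors used featureCounts, DESeq2 and build GRCh38. No aligner, release of the gene annotation or strand setting is named (not given in the sources used here). Per the labels' protocols, mRNA was sheared, reverse-transcribed, amplified by PCR and sequenced on a NovaSeq, so counts are of reads and not of single molecules.

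Counts were tested in edgeR 4.0.16 (R 4.3.3) after filterByExpr by group and TMM scaling (factors 0.922 to 1.04). The quasi-likelihood F test used a model of all 9 libraries with a mean for each group (6 residual degrees of freedom, common biological coefficient of variation 12.6%), and p-values were adjusted by Benjamini-Hochberg over 17902 genes within each comparison. CPM use the library total times its TMM factor. Transcript length, GC content and exon overlaps are those of GENCODE 29, with 1 transcript per gene, and promoter windows are from RefSeq. Values in every library are given for the 5 members called with the largest rise and fall per comparison with control, for the KDEL receptors, the SEC24 paralogues and the pairs of SAR1, SEC23 and SEC61A, and for others a group turned on. Of the other pathway genes, up to 5 per list and comparison are named, with the largest changes among those called at 1 CPM or more. The members and lists were chosen with earlier results of these data known. SEC11A, SRP14, SRP72, SEC61B and COL1A1 were given by library after their values were seen. Of 87 symbols on the other lists 85 matched a tested gene.

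Alternatives were the Wald test of DESeq2 1.42.0, scaling by its size factors or by library totals, filters set to none or to 5 CPM in 3 libraries, a fit of the 2 groups compared, a replicate block and each library left out. After the data were seen, 2 more were added: leaving out CoCl2-tolerant replicate 1 and low-glucose-tolerant replicate 2 together, and removing each library's trend on transcript length and GC content. The trend was fitted to each library's departure from the mean of all libraries. Its removal therefore also takes out differences between groups that go with length or GC content. The procedure was tested on simulated data. Replicates were checked for duplicates (chi-squared per degree of freedom 2.28 or more). Figures were made with Python 3.11.15 and matplotlib 3.10.9.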

Additional observations from a re-analysis of the deposited data

Results flagged for a closer look

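SEC24D, the cargo-binding COPII paralogue, was called lower in the CoCl2-tolerant line and higher in the low-glucose-tolerant line, both against the same control libraries. The difference between the tolerant lines was itself tested by edgeR, with a log2 fold change of -1.19 ± 0.13, adjusted p = 2.28e-06 (CoCl2-tolerant minus low-glucose-tolerant). All 3 CoCl2-tolerant libraries lay below control and all 3 low-glucose-tolerant libraries above it.

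2 other pathway genes showed opposite calls. SEC31B, the minor outer coat paralogue, was higher in the CoCl2-tolerant line (0.30 ± 0.11, adjusted p = 0.049) and lower in the low-glucose-tolerant line, with a direct difference of 3.02 ± 0.13, adjusted p = 2.37e-10. The CoCl2-tolerant call on SEC31B was lost without control replicate 1 (0.195), 2 (0.0577) or 3 (0.177) or CoCl2-tolerant replicate 1 (0.12), 2 (0.103) or 3 (0.0655). ARF3, a small GTPase of the Golgi, was lower in the CoCl2-tolerant line (-0.37 ± 0.11, adjusted p = 0.0148) and higher in the low-glucose-tolerant line (0.33 ± 0.11, adjusted p = 0.0121), with a direct difference of -0.70 ± 0.11, adjusted p = 5.1e-05. The ARF3 calls were lost without control replicate 2 (0.067) or CoCl2-tolerant replicate 3 (0.0889) in the first case and without control replicate 3 (0.0516) in the second. Of SEC31B and ARF3 exon length, 18.4% and 13.8% overlap other genes.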

How the results depend on the processing

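The calls on 6 of 13 members in the CoCl2-tolerant line (SEC11C, SEC23A, SEC24D, SEC61G, SRPRB, TRAM1), 23 of 28 in the low-glucose-tolerant line and 22 of 27 between the tolerant lines were kept under all 18 alternatives. Counts of members in the CoCl2-tolerant line (13 called, 6 higher, 7 lower) became 26, 13 and 13 in a fit of the 2 groups alone, 26, 14 and 12 without both CoCl2-tolerant replicate 1 and low-glucose-tolerant replicate 2, and 24, 12 and 12 after removal of the length and GC trend. With a library left out they ran from 6 to 24, 3 to 12 and 3 to 12. The other pathway genes there (21, 18 and 3) became 40, 28 and 12, then 33 called with 9 lower, then 39, 31 and 8 under the same 3 settings, and ran from 11 to 32, 8 to 22 and 2 to 10 with a library left out. The cause was not tested. The share of all tested genes called under each of these settings is not given here, so these counts have no background beside them. Counts in the low-glucose-tolerant line and between the tolerant lines stayed within 1.5 times.

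SPCS3 and SAR1B turned direction in the low-glucose-tolerant line after the same removal (0.29, adjusted p = 0.00906 and 0.34, adjusted p = 0.00503), having been under control and uncalled before. Library totals moved the median of all genes by -0.10 in that line, and removal of the length and GC trend moved it by 0.08. With the replicate block, the counts were 12 (5 higher, 7 lower), 26 and 25 members and 18, 61 and 56 other genes. Each library's deviation from its group mean was correlated with those of the other groups. Same-numbered libraries gave -0.26 to 0.12 and differently numbered ones -0.24 to 0.20, and the numbers were taken as names, not pairs. SRP19 and SEC61A2 rest on the fewest counts over the 9 libraries.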
